A study of Mus musculus with 6 samples.

Results

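The genes described here encode the TGF-beta superfamily of secreted ligands and the machinery that receives and transmits them: TGF-beta, bone morphogenetic protein (BMP), growth and differentiation factor (GDF), activin and inhibin subunits, their binding proteins, their receptors, the SMAD proteins, regulators inside the cell, and the ID proteins. Members were chosen by gene symbol, with a fixed pattern of name stems, and not by their measured values, though earlier results of these data were known. The pattern found 47 of the 14774 genes for which read counts were deposited. By role, these were 10 ligand subunits, 7 extracellular binders and processing proteins, 11 receptors, 8 SMAD proteins, 8 intracellular regulators and 3 ID proteins.

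Ligands of this family are dimers that bring type II and type I receptor kinases together at the cell surface. The type I receptor then phosphorylates receptor SMADs, which join SMAD4 and enter the nucleus, and the inhibitory SMADs shut the signal off. In the testis, activins are dimers of the beta subunits encoded by Inhba and Inhbb, inhibins pair a beta subunit with the alpha subunit encoded by Inha and oppose activins, and anti-Mullerian hormone acts on Leydig cells through the receptor encoded by Amhr2.

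The study sequenced total RNA from wild type MA-10 cells, which come from a tumor of mouse Leydig cells, and from STARKO1 cells, which are MA-10 cells in which Star was disrupted with CRISPR/Cas9. Star encodes the protein that moves cholesterol into mitochondria for steroid synthesis, and the comparison asks which genes differ when the Star made without hormone is missing. Each line gave 3 libraries, all from untreated cells. STARKO1 is 1 clone grown from a single cell, so its differences from MA-10 cells cannot be told apart from differences between clones, and nothing in the labels says that the replicates were separate cultures, so p-values measure only the spread between these libraries.

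Levels are given in CPM, counts per 1000000 counts of the TMM-scaled library size, and a mean is followed by the SD of the 3 libraries. The lines were compared with edgeR's quasi-likelihood test over all tested genes, and a gene was called differentially expressed at a Benjamini-Hochberg adjusted p under 0.05. The library totals lay between 14114351 and 19530062 counts, at which 3 counts corresponded to between 0.129 and 0.264 CPM. Star itself was at 60.9, 109 and 61.4 CPM in MA-10 replicates 1, 2 and 3 and at 2.07, 2.71 and 2.02 CPM in the STARKO1 replicates, a log2 fold change of -5.09 (SE 0.331, adjusted p = 0.0012), which goes with the labels.

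MA-10 replicate 1 stood apart from the other MA-10 libraries. Its log2 CPM over 11939 genes had a Pearson correlation of 0.897 and 0.931 with MA-10 replicates 2 and 3, but of 0.956 to 0.959 with the STARKO1 libraries. Over the tested family members alone the order was the other way, 0.912 and 0.949 with its own line and 0.899 to 0.907 with the STARKO1 libraries. Its 7SL RNA share (1.81% of counts) and ribosomal protein gene share (4.02%) were like those of STARKO1 cells (1.82 to 2.37% and 3.74 to 3.9%), whereas MA-10 replicates 2 and 3 had 14.4% and 6.63% of 7SL RNA and 8.03% and 7.13% of ribosomal protein gene counts. Each family result is therefore also given without this library and with it as the only MA-10 library. Those fits share the STARKO1 libraries, and the last of them takes its spread from STARKO1 alone and assumes that the lone library varies like them.

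All 12 Leydig cell markers examined were in the table, with a summed level of 2155 to 2859 CPM in MA-10 and 1740 to 1821 CPM in STARKO1 libraries, and of these Hsd3b1 (log2 fold change -2.52) and Star were called lower. The largest parts of the MA-10 sum were Cyp11a1 (mean 835 CPM, 439 in STARKO1) and Hsd3b6 (573 and 302). Both and Lhcgr (log2 fold change -0.58) were lower without overlap between the lines. Cyp17a1 (1.27) and Nr5a1 (0.42) were higher without overlap, and none of these 5 was called. The Sertoli cell markers Sox9, Fshr and Wt1 were not among the genes analysed here, and the 4 of 8 Sertoli markers in the table summed to 438 to 516 CPM in MA-10 and 401 to 430 CPM in STARKO1 cells. Nearly all of this sum was Clu and Tjp1. Clu was lower (log2 fold change -0.43) and Gata1 higher (1.09) in STARKO1 cells without overlap, and neither was called. Of 4 endothelial markers, 2 were in the table and summed to 26.4 to 41.5 CPM in MA-10 and 118 to 124 CPM in STARKO1 libraries, almost all of it Cdh5 (log2 fold change 1.84, called). Of 7 fibroblast markers, 2 were in the table, at 3.12 to 7.66 CPM in MA-10 and 0.337 to 0.43 CPM in STARKO1 libraries, and of these Pdgfra was called lower, with 103, 32 and 76 counts in the MA-10 and 0, 2 and 1 counts in the STARKO1 replicates. Macrophage markers (2 of 5 in the table) overlapped between the lines, at 4.86 to 9.85 and 6.37 to 8.56 CPM, as did the 1 germ cell marker of 4 in the table, at 2.20 to 3.55 and 1.91 to 2.83 CPM. The part of these markers in the family's results was not tested.

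Of the 47 members, 40 had enough counts for the test, which called 6 (15%). The activin beta B subunit Inhbb and the type I receptor Acvr1 rose in STARKO1 cells, and the inhibin alpha subunit Inha, the activin-binding protein Fstl3, the ligand Tgfb3 and the transcriptional inhibitor Id3 fell. Over all tested genes, 9.04% were called, 4.3% higher and 4.74% lower in STARKO1 cells. The CPM of the lines did not overlap for 16 members (40%), 5 higher and 11 lower in STARKO1 cells, against 42.5% of all tested genes (21.5% higher and 21% lower). The median log2 fold change was 0.02 over the 40 members and -0.05 over all tested genes. On overlap in either direction and on median the members were thus close to all tested genes. By direction, 11 of the 16 members were lower, while all tested genes split nearly evenly. This difference in split was not tested. In bulk RNA, fewer cells of a type and less RNA per cell cannot be told apart, so every value below is a level per library.

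Inhbb, which encodes the beta B subunit of activin B and inhibin B, had the largest log2 fold change of the tested members. It was at 1.49, 1.13 and 0.70 CPM in the MA-10 replicates and at 9.72, 9.90 and 9.16 CPM in the STARKO1 replicates, from 8 to 26 counts per MA-10 library and 163 to 226 per STARKO1 library. The lines were far apart and the STARKO1 libraries nearly equal. The mean was 1.11 ± 0.393 in MA-10 and 9.59 ± 0.389 CPM in STARKO1 cells (SD, n = 3), 8.67-fold higher, with an edgeR log2 fold change of 3.08 (SE 0.287, adjusted p = 0.00349). The call held without each library in turn, and the log2 fold change was 3.47 without MA-10 replicate 1 and 2.68 with that library as the only MA-10 library. The gene lies at chr1:119415465-119422248 on the minus strand (GRCm38).

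Inha encodes the alpha subunit that turns an activin beta subunit into an inhibin, and it moved the opposite way. Its level was 71.1, 77.5 and 53.1 CPM in the MA-10 replicates and 35.6, 32.5 and 37.0 CPM in the STARKO1 replicates, so that the lowest MA-10 library was above every STARKO1 library. The log2 fold change was -0.94 (SE 0.188, edgeR adjusted p = 0.0328), from 67.2 ± 12.6 to 35.0 ± 2.33 CPM. The call was lost under library size scaling (log2 fold change -0.50, adjusted p = 0.257), upper quartile scaling and gene length offsets, and without any library other than MA-10 replicate 1, with the direction kept in each of these fits. Leaving out any of those libraries left 0.73 to 4.19% of all tested genes called, against 9.04% with all libraries, here and for the members below. Inha lies at chr1:75507077-75510366 on the plus strand.

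Inhba, the beta A subunit, was at 22.2, 19.4 and 22.5 CPM in MA-10 and at 21.8, 16.9 and 20.7 CPM in STARKO1 libraries. The lines overlapped, with a log2 fold change of -0.11 (95% interval -0.51 to 0.29, edgeR adjusted p = 0.64). Of the 3 activin and inhibin subunits in the table, the beta B subunit was thus higher in every fit that tested it, the alpha subunit lower with a call that depended on the fit, and the beta A subunit not shown to differ.

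Tgfb3, a TGF-beta ligand, was at 6.07, 4.77 and 4.4 CPM in the MA-10 replicates and at 2.62, 2.53 and 1.69 CPM in the STARKO1 replicates. It fell by 1.15 on the log2 scale (SE 0.27, edgeR adjusted p = 0.0469), and the lines did not overlap. DESeq2 also made this call, but it was lost under each other scaling and filter tried and without any library other than MA-10 replicate 1 (adjusted p up to 0.243). Tgfb3 (chr12:86056745-86079041, minus strand) overlaps Ttll5 on the opposite strand, and since the strand setting of the counting is not given in the sources used here, reads of the overlap may have been counted for either gene.

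Tgfb1, which encodes the most studied TGF-beta, was at 37.3, 22.1 and 27.4 CPM in MA-10 and at 19.7, 20.8 and 22.02 CPM in STARKO1 libraries. The lowest MA-10 library lay just above the highest STARKO1 library, and the difference did not pass the test (log2 fold change -0.48, edgeR adjusted p = 0.158). Gdf15, a ligand secreted by stressed cells, had 16.2, 11.97 and 13.0 CPM in MA-10 and 10.5, 6.72 and 10.7 CPM in STARKO1 libraries, a log2 fold change of -0.56 (edgeR adjusted p = 0.138). Bmp6 and Gdf11 overlapped between the lines, with log2 fold changes of -0.04 and -0.21. Bmp6 overlaps Txndc5 on the opposite strand. The ligands Bmp8a and Gdf9, the latter known as an oocyte factor, had 0 to 5 counts per library and were not tested.

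**Figure D1:**
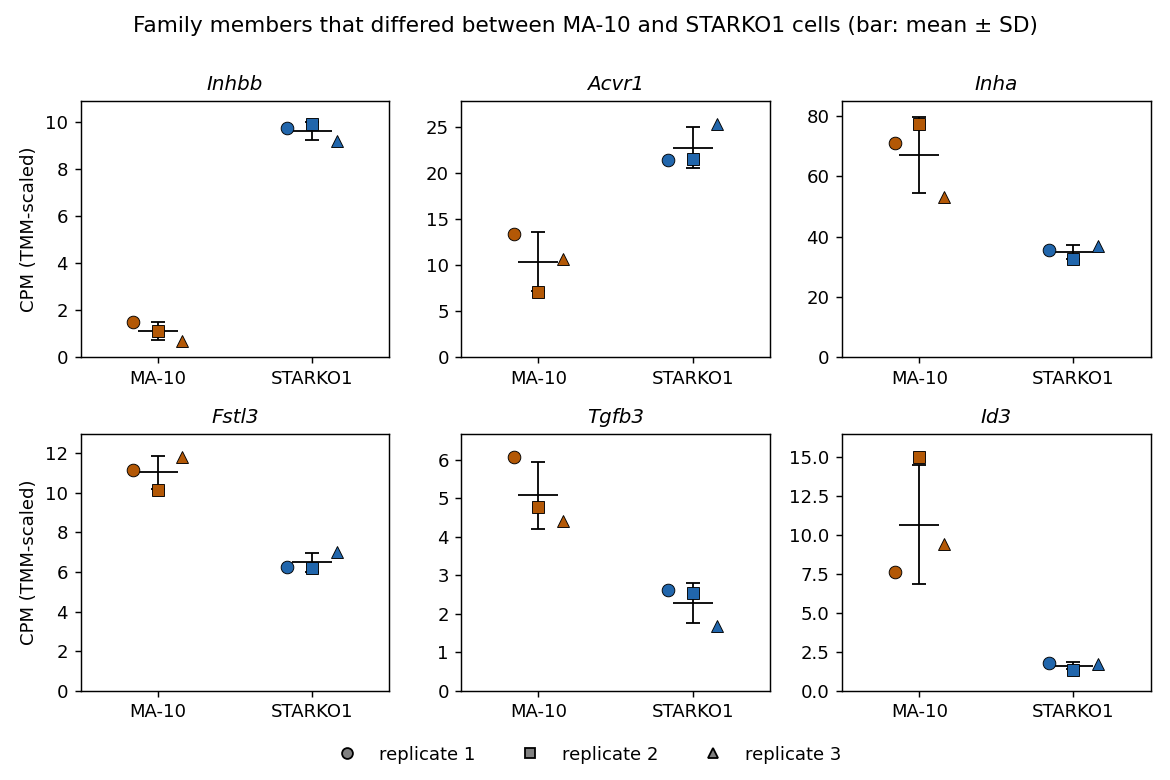
Level in CPM (TMM-scaled, linear axes from 0) of the 6 differentially expressed family members in each MA-10 and STARKO1 library. Symbols mark the replicate, the horizontal bar is the mean and the error bar the SD of 3 libraries, and no MA-10 library lies within the STARKO1 range for any of the 6 genes.

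Among the extracellular proteins, Fstl3, a follistatin-like protein that binds and neutralizes activins, was at 11.2, 10.2 and 11.8 CPM in the MA-10 replicates and at 6.24, 6.19 and 7.02 CPM in the STARKO1 replicates. Both lines were tight and did not overlap. Fstl3 (chr10:79777272-79782630, plus strand) fell by 0.77 on the log2 scale (SE 0.166, edgeR adjusted p = 0.0398), from 11.04 ± 0.834 to 6.48 ± 0.468 CPM. Library size scaling (log2 fold change -0.34, adjusted p = 0.428), upper quartile scaling, gene length offsets and the absence of a filter ended the call, and so did leaving out any library other than MA-10 replicate 1.

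The latent TGF-beta binding proteins Ltbp3 and Ltbp4, which hold TGF-beta in the matrix, and Bmp1, which in spite of its name is a protease of the extracellular matrix, had log2 fold changes of 0.54, 0.07 and 0.29, and none passed the test. Each was higher in MA-10 replicate 1 than in the other MA-10 libraries, with Ltbp3 at 48.2 CPM there, 15.4 and 21.1 CPM in MA-10 replicates 2 and 3, and 39.2 to 43.4 CPM in STARKO1 cells.

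The remaining extracellular members were close to the limit of counting and were not tested. Bmper, a BMP-binding protein, had 3 counts over the MA-10 libraries and 14 over the STARKO1 libraries, a ratio per effective library size of 3.25 (95% exact interval 0.906 to 17.6). Fstl1 had 2 and 15 counts (ratio 5.22, interval 1.21 to 47.0), and Fstl5 had 3 and 18 counts (ratio 4.17, interval 1.22 to 22.1). These intervals cover counting error only and not the spread between libraries. Ratios were worked out only for genes that were scarcer in MA-10 than in STARKO1 cells, a choice that favours ratios above 1. The ligand Bmp8a went the other way, with 4, 1 and 5 counts in MA-10 and 1, 0 and 2 in STARKO1 libraries. Gdf9 had 5, 0 and 2 counts in MA-10 and 3, 2 and 1 in STARKO1 libraries. Neither was given a ratio, so the direction of the ratios above says nothing of low-count members in general.

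Of the 11 receptors, 9 were tested and 1 (11.1%), Acvr1, was called, near the 9.04% of all tested genes. Acvr1 encodes ALK2, a type I receptor that serves BMPs and anti-Mullerian hormone. It was at 13.4, 7.11 and 10.7 CPM in the MA-10 replicates and at 21.4, 21.5 and 25.3 CPM in the STARKO1 replicates, with no overlap. Acvr1 (chr2:58388644-58567157, minus strand) rose 2.19-fold, from 10.4 ± 3.15 to 22.7 ± 2.25 CPM (log2 fold change 1.12, SE 0.251, edgeR adjusted p = 0.0425). Its call was lost under library size and upper quartile scaling and without any library other than MA-10 replicate 1 (adjusted p up to 0.189).

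Amhr2, the type II receptor of anti-Mullerian hormone, had the largest log2 fold change of the members that were not called. Its level was 118, 31.3 and 32.5 CPM in the MA-10 replicates and 165, 186 and 198 CPM in the STARKO1 replicates. The lines did not overlap, but MA-10 replicate 1 was nearer to the STARKO1 libraries than to the other MA-10 libraries, and the SD of the MA-10 libraries (49.8 CPM) was close to their mean (60.7 CPM). The log2 fold change was 1.59 (SE 0.532, edgeR adjusted p = 0.0859). It was 2.61 without MA-10 replicate 1 (edgeR adjusted p = 1.09e-05) and 0.63 with that library as the only MA-10 library (edgeR adjusted p = 0.000212), and the adjusted p ran from 1.09e-05 to 0.232 over all alternative fits. DESeq2 called Amhr2 with all 6 libraries (adjusted p = 0.0149). The direction of Amhr2 was thus shared by all fits, while its size turned on 1 library and its call on that library and on the tool. Its ligand gene Amh was not analysed here.

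The other type II receptors tested overlapped between the lines. Tgfbr2, the type II receptor of TGF-beta, was not among the genes analysed here. Bmpr2 was at 141 to 243 CPM in MA-10 and 192 to 230 CPM in STARKO1 libraries (log2 fold change 0.17), Acvr2a had 0.19 and Acvr2b -0.40. Acvr2a overlaps Orc4 on the opposite strand. The type I receptors Bmpr1a and Acvr1b had log2 fold changes of 0.27 and 0.02, and the co-receptor Tgfbr3, also called betaglycan, which lets inhibin bind activin receptors, had 0.19.

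Tgfbr1, the type I receptor of TGF-beta, was at 27.6, 30.0 and 28.0 CPM in MA-10 and at 22.5, 20.5 and 21.5 CPM in STARKO1 libraries. The lines did not overlap and the difference did not pass the test (log2 fold change -0.41, SE 0.142, edgeR adjusted p = 0.0919). Acvrl1, an endothelial type I receptor, had 5 to 13 counts per library and Bmpr1b 1 to 6, and both were left untested.

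**Figure D2:**
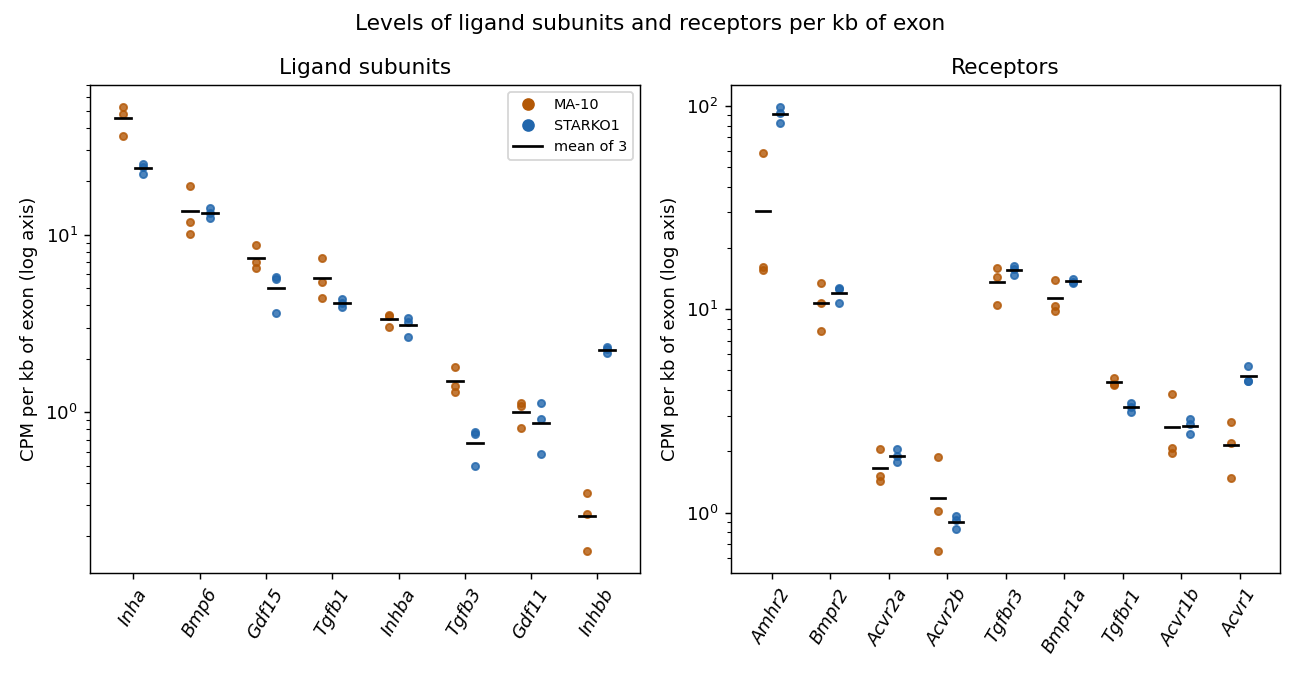
Levels of the tested ligand subunits and receptors in CPM per kb of annotated exon (log axes) in the 3 MA-10 and 3 STARKO1 libraries, with lines at the means. By mean, Inha was the highest ligand subunit and Amhr2 the highest receptor in both lines, and Inhbb went from the lowest ligand subunit in MA-10 to 2.26 CPM per kb in STARKO1 cells.

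Levels were compared between genes only per kb of annotated exon. On that scale Inha was the highest ligand subunit in MA-10 cells (45.6 ± 8.57 CPM per kb), followed by Bmp6 (13.6), Gdf15 (7.41), Tgfb1 (5.74), Inhba (3.35), Tgfb3 (1.5), Gdf11 (1.01) and Inhbb (0.260). In STARKO1 cells Inha was at 23.8 ± 1.58 and Bmp6 at 13.3 CPM per kb, and Inhbb at 2.26 came close to Inhba at 3.10, with Tgfb3 the lowest at 0.674. The receptors Bmpr1a, Bmpr2 and Tgfbr3 stood between 10.7 and 15.6 CPM per kb in both lines, Tgfbr1 at 4.37 and 3.29, and the activin receptors Acvr1b, Acvr2a and Acvr2b between 0.903 and 2.68. Amhr2 was at 30.3 ± 24.9 CPM per kb in MA-10 and 91.3 ± 8.12 CPM per kb in STARKO1 cells.

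Ratios of 2 members within a library do not depend on the scaling between libraries. The pairs were chosen after their values were seen, so the ratios are a description without a test. The ratio of Inhbb to Inha per kb was 0.00726, 0.00505 and 0.0046 in the MA-10 replicates and 0.0946, 0.106 and 0.0857 in the STARKO1 replicates, on average 16.9-fold higher. The ratio of Inhbb to Inhba was 0.101, 0.0872 and 0.0469 in MA-10 and 0.669, 0.882 and 0.665 in STARKO1 libraries. The beta B subunit was thus at most 0.101 of the beta A subunit in each MA-10 library and at least 0.665 of it in each STARKO1 library, MA-10 replicate 1 included.

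The ratio of Acvr1 to the other BMP type I receptor tested, Bmpr1a, was 0.151 to 0.212 in MA-10 and 0.315 to 0.39 in STARKO1 libraries. The ratio of Tgfb1 to Tgfb3 was 3.11 to 4.17 and 5.05 to 8.77. Neither ratio overlapped between the lines.

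The 8 SMAD genes were all tested and none was called by edgeR (9.04% of all tested genes were), while 2 of them (25%) had an unadjusted edgeR p under 0.05, against 37.6% of all tested genes. DESeq2, which called 28.4% of all tested genes, called Smad7 and Smad1. Smad7, an inhibitory SMAD that TGF-beta itself induces, was at 14.6, 5.90 and 8.89 CPM in the MA-10 replicates and at 25.4, 24.6 and 17.6 CPM in the STARKO1 replicates. The lines did not overlap, and the log2 fold change was 1.19 (SE 0.343, edgeR adjusted p = 0.0669, range over the alternatives 0.000444 to 0.214).

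Smad1, a receptor SMAD of the BMP branch, was at 32.1, 30.5 and 27.5 CPM in MA-10 and at 20.4, 20.5 and 16.8 CPM in STARKO1 libraries, with no overlap. Its log2 fold change was -0.64 (SE 0.161, edgeR adjusted p = 0.0538, range over the alternatives 0.000368 to 0.598). The other BMP receptor SMADs, Smad5 and Smad9, had log2 fold changes of 0.15 and -0.62. Smad2 and Smad3, which carry TGF-beta and activin signals, had -0.16 and 0.37, the shared partner Smad4 had 0.25 and the inhibitory Smad6 had 0.32. The ranges of all 6 overlapped between the lines.

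None of the 8 intracellular regulators was called by edgeR (9.04% of all tested genes were), and 2 (25%) had an unadjusted p under 0.05 (37.6% of all tested genes). Skil, which encodes the SMAD corepressor SnoN, was at 41.4, 38.0 and 46.6 CPM in MA-10 and at 30.8, 30.2 and 26.0 CPM in STARKO1 libraries (log2 fold change -0.53, edgeR adjusted p = 0.0711). It was called by DESeq2. Tgfbrap1, a protein that binds TGF-beta receptors, was at 16.9 to 23.3 CPM in MA-10 and 25.9 to 28.8 CPM in STARKO1 libraries (log2 fold change 0.48, edgeR adjusted p = 0.103).

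The other regulators lay between log2 fold changes of -0.40 and 0.52. These were the SMAD corepressor Ski (0.31), the ubiquitin ligases Smurf1 (0.00) and Smurf2 (-0.40), the homeobox repressors Tgif1 (-0.28) and Tgif2 (0.52), and Bmp2k (0.01), a kinase named for its induction by BMP2. Tgif1 did not overlap between the lines, and the rest did. Ski had 90.3 CPM in MA-10 replicate 1 against 27.9 and 35.1 CPM in the other MA-10 libraries and 59.2 to 68.3 CPM in STARKO1 cells, so its MA-10 range enclosed the whole STARKO1 range.

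The ID proteins bind and block basic helix-loop-helix transcription factors, and their genes are textbook targets of BMP signalling. Id3 was at 7.62, 15 and 9.42 CPM in the MA-10 replicates and at 1.81, 1.36 and 1.69 CPM in the STARKO1 replicates, from 107 to 173 and from 23 to 42 counts per library. It fell from 10.7 ± 3.85 to 1.62 ± 0.233 CPM, 6.61-fold lower (log2 fold change -2.71, SE 0.319, edgeR adjusted p = 0.00711). Its lowest MA-10 library was well above its highest STARKO1 library. Leaving out any of the 3 STARKO1 libraries ended the call, with an adjusted p of at most 0.0563. Id3 lies at chr4:136143497-136145755 on the plus strand.

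Neither of the other ID genes was called. Id1 was at 16.3, 11.01 and 10.7 CPM in MA-10 and at 12.7, 14.03 and 14.05 CPM in STARKO1 libraries, overlapping (log2 fold change 0.10, 95% interval -0.40 to 0.60, edgeR adjusted p = 0.746). Id2 was at 91.1, 141 and 113 CPM in MA-10 and at 80.7, 82.1 and 73.7 CPM in STARKO1 libraries, without overlap (log2 fold change -0.55, edgeR adjusted p = 0.0991). The ratio of Id3 to Id2 per kb was 0.113 to 0.145 in MA-10 and 0.0225 to 0.0312 in STARKO1 libraries, and the ratio of Id3 to Id1 was 0.303 to 0.882 and 0.0626 to 0.0922. Per kb, Id2 was the highest of the 3 in both lines, at 47.3 CPM per kb in MA-10 and 32.3 CPM per kb in STARKO1 cells.

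**Figure D3:**
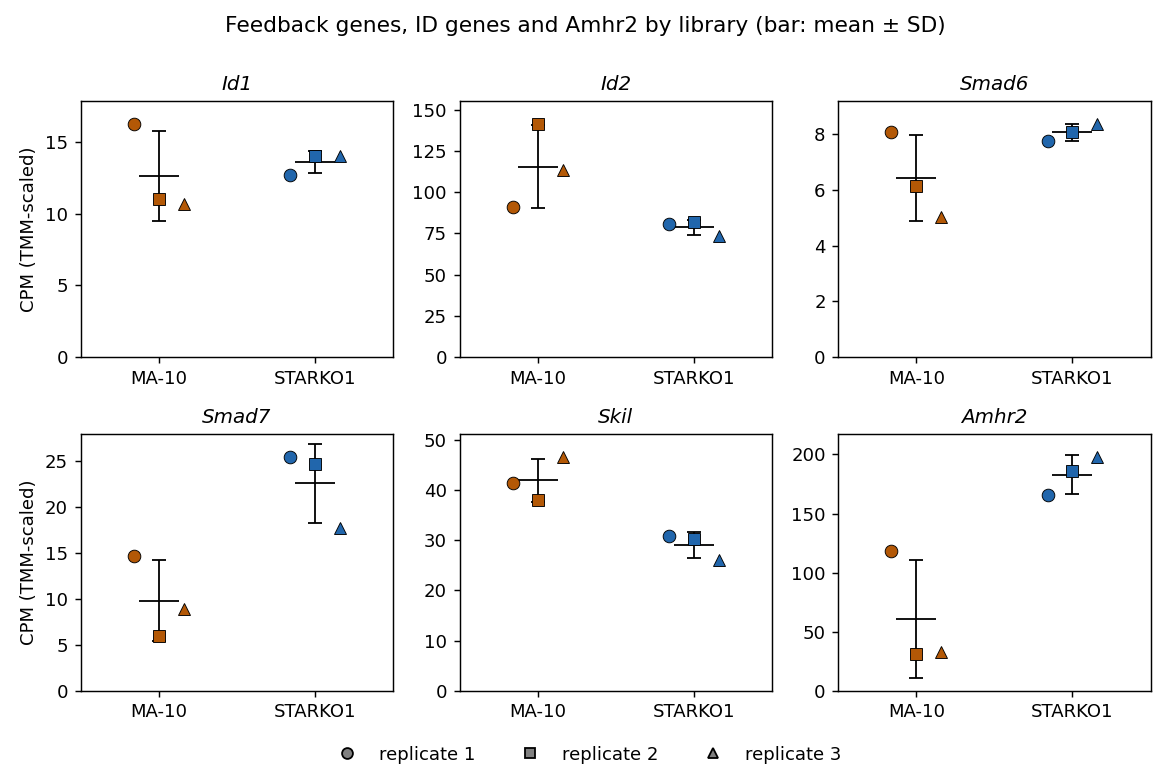
Level in CPM (TMM-scaled, linear axes from 0) of the ID genes Id1 and Id2, the inhibitory SMADs Smad6 and Smad7, the corepressor Skil and the receptor Amhr2 in each library, with the mean and SD of 3. None of the 6 was called by edgeR, Id1 and Smad6 overlapped between the lines, and Amhr2 in MA-10 replicate 1 (118 CPM) stood far above the other MA-10 libraries.

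MA-10 replicate 1 bore on the size of most members and on the direction of many. By log2 CPM it was nearer to the STARKO1 mean than to the other MA-10 libraries for 24 of the 40 tested members (60%), against 69.9% of all tested genes, and for 0 of the 6 called members. The 6 were called by a fit that holds MA-10 replicate 1, which disfavours members for which it sat with STARKO1. The count of 0 was thus largely set by the selection. Without MA-10 replicate 1, edgeR called 28 members, 20 higher and 8 lower in STARKO1 cells (65.7% of all genes were then called, 34% higher and 31.7% lower). With it as the only MA-10 library, 26 members were called, 5 higher and 21 lower (40.5% of all genes, 19.9% higher and 20.6% lower).

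The direction differed between those 2 fits for 22 members, of which 21 were higher in STARKO1 cells without the library and lower with it alone. Examples are Ski (1.1 and -0.51 on the log2 scale), Ltbp4 (0.75 and -0.67) and Smad4 (0.82 and -0.40). All 6 called members kept their direction in both fits, and their call without MA-10 replicate 1. They were picked by a fit that holds this library, so this was likely beforehand and is no separate test of them. Of the 6, Inha, Fstl3, Acvr1 and Tgfb3 were called without MA-10 replicate 1 but in no fit that left out another library. Inhbb was called in all 6 fits that left out a library, and Id3 in 3. Over all tested genes, 65.7% were called without MA-10 replicate 1. The share was 4.19% and 1.49% without MA-10 replicates 2 and 3, and 0.73 to 1.11% without a STARKO1 library.

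**Figure D4:**
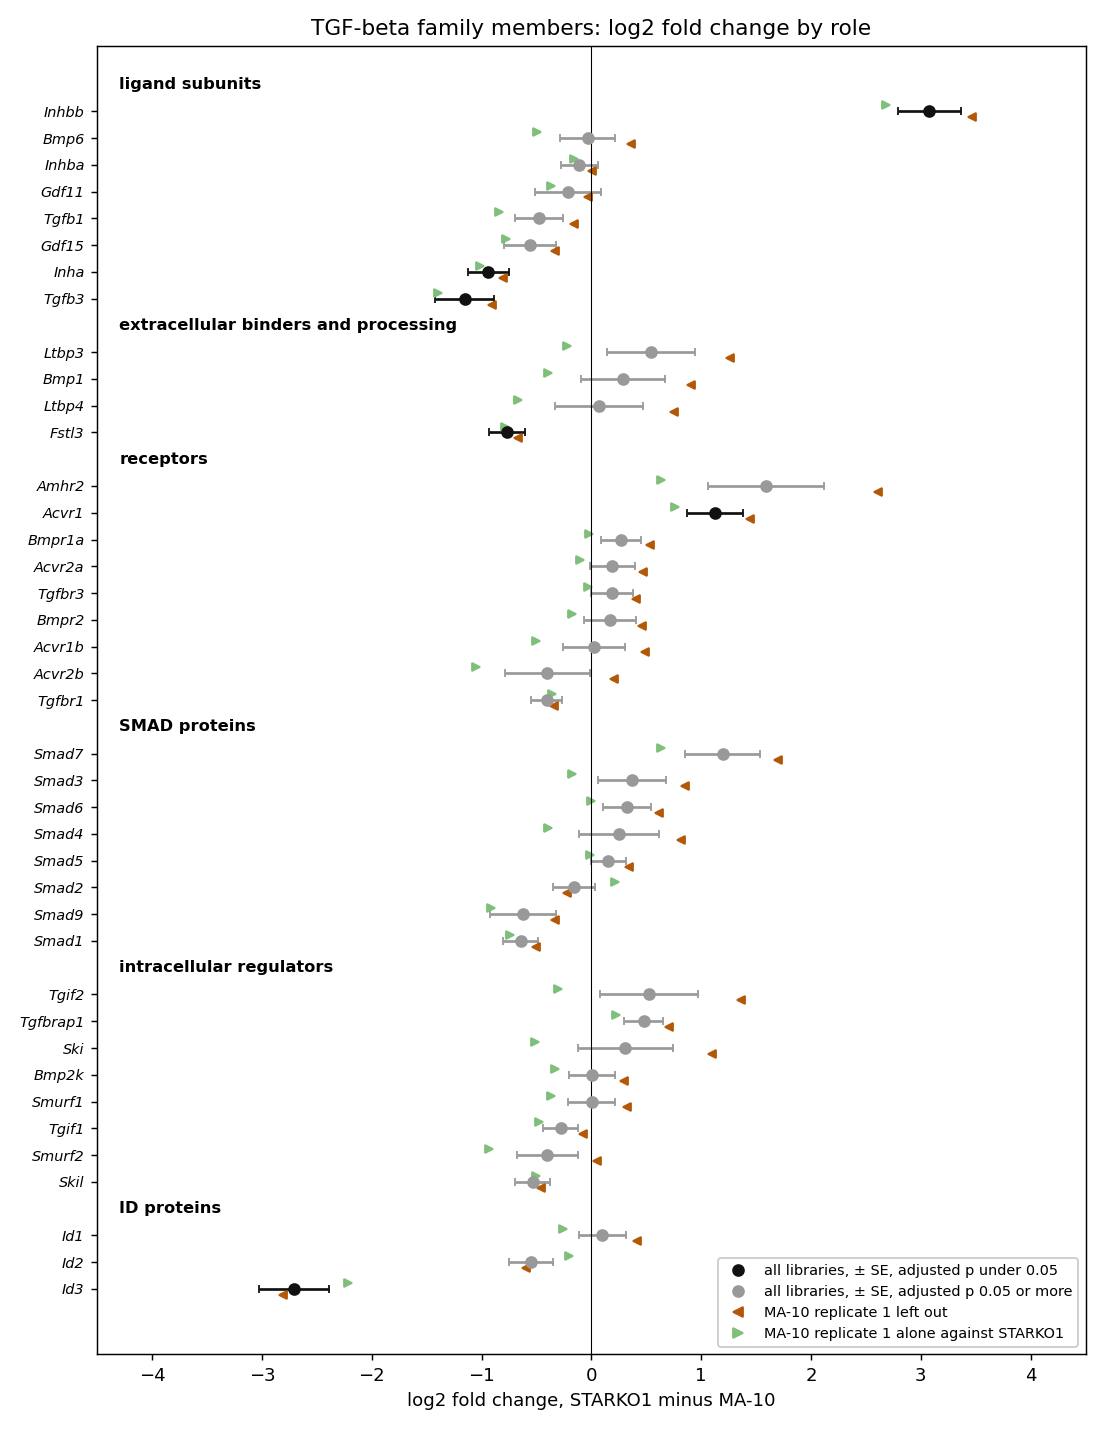
Log2 fold change (STARKO1 minus MA-10) of the 40 tested members grouped by role. Circles show the fit of all libraries with its SE, black where the adjusted p was under 0.05, and triangles show the fits without MA-10 replicate 1 and with it as the only MA-10 library, which lie on opposite sides of 0 for 22 members but on the same side for the 6 in black.

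Promoter sequence was examined for the members, as 250 bases before the RefSeq start on the build GRCm38.p6, for 37 of the 47 members with an entry. The 3 windows below are printed for Inhbb and Fstl3, which were called, and for Amhr2, which was not called but had the largest log2 fold change of the rest. The windows of the called members Inha, Acvr1 and Id3 are left out because they lie in part or wholly in their own annotated exons, and the called member Tgfb3 had no entry. The Fstl3 window has 248 bases, since 2 bases of its exon were removed. Capitals mark matches, on either strand, to the letters CAGAC (a SMAD box), GGCGCC (a BMP SMAD palindrome), TGACGTCA (a cAMP response element), AAGGTCA (an SF-1 element) or CCGCCC (a GC box). Each is written 5′ to 3′ on the strand of its gene.
Inhbb, chr1:119422249-119422498, minus strand: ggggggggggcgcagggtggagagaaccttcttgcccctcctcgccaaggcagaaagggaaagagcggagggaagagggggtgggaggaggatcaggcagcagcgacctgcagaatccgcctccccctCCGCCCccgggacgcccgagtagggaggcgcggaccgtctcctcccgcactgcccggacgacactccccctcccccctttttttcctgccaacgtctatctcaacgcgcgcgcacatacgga
Fstl3, chr10:79777024-79777271, plus strand: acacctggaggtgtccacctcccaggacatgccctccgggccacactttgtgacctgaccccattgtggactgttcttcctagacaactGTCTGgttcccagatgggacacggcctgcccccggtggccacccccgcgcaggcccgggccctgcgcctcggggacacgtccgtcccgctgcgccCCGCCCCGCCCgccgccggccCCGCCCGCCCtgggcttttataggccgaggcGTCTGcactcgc
Amhr2, chr15:102445117-102445366, plus strand: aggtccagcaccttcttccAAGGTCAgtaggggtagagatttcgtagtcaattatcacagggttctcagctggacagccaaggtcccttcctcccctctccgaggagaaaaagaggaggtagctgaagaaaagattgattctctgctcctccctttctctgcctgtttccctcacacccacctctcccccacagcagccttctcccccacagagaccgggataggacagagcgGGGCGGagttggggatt

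The Inhbb window was GC-rich (68% G or C) and held 1 GC box, 122 bases before the start, and none of the other letters searched. The Fstl3 window (71.4% G or C) held the SMAD box at 159 and 12 bases before the start of its annotated exon, and 4 GC boxes, which overlap in pairs. The Amhr2 window (55.2% G or C) held 1 SF-1 element, 231 bases before the start, and 1 GC box on the other strand. Of the promoters of 27025 genes, 42.1% held the SMAD box, 9.54% the BMP SMAD palindrome, 1.62% the cAMP response element, 4.05% the SF-1 element and 32.9% the GC box. A match describes letters in the window and says nothing of binding.

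Other genes of the pathway came from a separate list, also chosen with earlier results of these data known. It held 95 ligands, extracellular inhibitors, latency and activation proteins, intracellular regulators and nuclear partners. Of these, 64 were in the table, 59 were tested and 7 (11.9%) were called, 3 higher and 4 lower, near the 9.04% of all tested genes (4.3% higher and 4.74% lower). Their median log2 fold change was 0.07. Zfp423, a zinc finger partner of the BMP SMADs, rose from 3.45 ± 0.689 to 23.3 ± 1.37 CPM (log2 fold change 2.74, edgeR adjusted p = 0.00191). Its libraries were at 4.24, 2.95 and 3.17 CPM in MA-10 and 21.9, 24.6 and 23.3 CPM in STARKO1 cells, so MA-10 replicate 1 sat with its own line. Chrdl2, a chordin-like BMP inhibitor with 7 to 27 counts per MA-10 library, rose from 1.01 to 3.28 CPM (log2 fold change 1.65, edgeR adjusted p = 0.041). The ubiquitin ligase Wwp2 rose from 26.7 to 40.7 CPM (0.61, edgeR adjusted p = 0.0492).

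The 4 that fell were Runx2, a transcription factor that works with SMADs (log2 fold change -1.41), the deubiquitinase Usp11 (-1.11), the SMAD-binding repressor Zeb1 (-0.94) and Ppm1a, a phosphatase of receptor SMADs (-0.64). Their edgeR adjusted p was 0.0254, 0.0483, 0.0318 and 0.0401 in that order. Under library size scaling only 1 gene of the whole list was called. Ppm1a was nearly equal within each line, at 118, 117 and 116 CPM in MA-10 and 75.5, 77.9 and 71.9 CPM in STARKO1 libraries. By role, calls were 1 of 8 extracellular inhibitors and co-receptors, 3 of 29 intracellular regulators, 3 of 15 nuclear partners, and 0 of the 6 latency and activation proteins and the 1 other ligand tested.

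A further list of 28 genes known as SMAD targets, likewise chosen with earlier results known, had 12 in the table and 11 tested. EdgeR called 0 of the 11, with 3 at an unadjusted p under 0.05, and DESeq2 called 1, while the shares over all tested genes were 9.04%, 37.6% and 28.4%. Their median log2 fold change was -0.17.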

How the data were processed

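Total RNA of 3 MA-10 and 3 STARKO1 libraries was made into stranded libraries. The authors deposited estimated counts per gene, not scaled, and the submitters' processing notes name the aligner STAR 2.6.1d, Partek and build mm10. Settings of the counting, its strand included, are not given in the sources used here. Of 14774 genes, 7892 had a value not whole (tolerance 0.0005) in at least 1 library. The deposited values were rounded. Coordinates matched GENCODE M21 of GRCm38 for 14634 genes by start, and exon lengths came from it.

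Genes were kept by filterByExpr and compared with edgeR 4.0.16 (TMM, glmQLFit, glmQLFTest, Benjamini-Hochberg over 11939 genes) in R 4.3.3. The SE is the fold change over the root of F. Members and lists were chosen with earlier results of these data known. Genes given in full are Star, called members, the main subunits, receptors, SMADs and ID genes, and the 3 uncalled members of largest change without overlap. The ratios of member pairs and 1 alternative, MA-10 replicate 1 alone against STARKO1, were chosen after values were seen. In simulated counts (11823 genes, 195 changed) the test found 81.2% of 4-fold and 6.06% of 2-fold changes, and 4.55% of calls were false (DESeq2 21.8%), so 2-fold differences were mostly missed there. The simulation drew each gene independently and held no library shifted over many genes, as MA-10 replicate 1 is. Its shares therefore need not hold for the calls made here or for DESeq2 against edgeR. Depth limits precision only for members of few counts. Alternatives were DESeq2 1.42.0, other scalings and filters, a replicate block, gene length offsets, removal of the 50 most abundant genes, and each library left out. Figures were drawn with matplotlib 3.10.9.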

Additional observations from a re-analysis of the deposited data

How the results depend on the processing

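Against 6 members called (2 higher, 4 lower), DESeq2 called 10 (4 higher, 6 lower), library size and upper quartile scaling 2 each (1 higher, 1 lower), no filter 4 (2 lower) and a minimum of 10 counts in every library 4 (1 higher, since Inhbb was no longer tested). MA-10 replicate 1 alone, an alternative chosen after the data were seen, gave 26 (5 higher, 21 lower), and leaving out each library 1 to 28 (higher 1 to 20, lower 0 to 8). Over all genes the main count of 1079 became 3395 with DESeq2, 330 with library size scaling (210 higher), 695 with the minimum of 10, 5086 with MA-10 replicate 1 alone and 89 to 7990 without each library. Other pathway genes went from 7 to 16 (DESeq2), 1 (library size), 4 (upper quartile, no filter and the minimum of 10), 29 (replicate 1 alone) and 1 to 37 (each library left out), and SMAD targets from 0 to 1 (DESeq2), 4 (replicate 1 alone) and 0 to 7. The replicate block left 2 members (Inhbb, adjusted p = 0.0174, and Id3, 0.0297; 1 higher, 1 lower), 234 genes over all and 1 other pathway gene. The share of all tested genes called was 9.04% in the main fit, 28.4% with DESeq2 and 2.76% with library size scaling. It was 6.94% with upper quartile scaling, 6.41% without a filter and 6.44% with the minimum of 10 counts. With gene length offsets it was 10.2%, without the 50 most abundant genes 8.49% and with the replicate block 1.96%. The deviations of same-numbered libraries correlated at -0.0165, 0.0455 and 0.0201, so the numbers were not taken to pair the libraries. All 6 called members kept their direction in every alternative fit that tested them. Inha, Fstl3, Acvr1 and Tgfb3 lost their call under library size scaling (adjusted p = 0.257, 0.428, 0.103 and 0.243), upper quartile scaling (0.0619, 0.0813, 0.0531 and 0.0782) and the block (0.0986, 0.11, 0.0812 and 0.0974). Gene length offsets called 5 members, without Inha (0.0659), Fstl3 (0.0689) and Tgfb3 (0.0516) but with Skil and Smad1. Removal of the 50 most abundant genes called 5, without Tgfb3 (0.0536), which also lost its call without a filter (0.0632) and with the minimum of 10 counts (0.0506), as did Fstl3 without a filter (0.0595). The cause of these losses was not tested. Library size scaling moved the median of all genes from -0.05 to 0.38 (0.10 with upper quartile scaling) and turned Bmp6 (0.32), Gdf11 (0.19), Inhba (0.31), Smad2 (0.34), Tgfbr1 (0.0399) and Tgif1 (0.12). Upper quartile scaling turned Bmp6 (0.0858), Inhba (0.0312) and Smad2 (0.007), and no filter (0.0125) and the block (0.0146) turned Bmp6. Length offsets turned Bmp2k (-0.0396) and Smurf1 (-0.0383). With MA-10 replicate 1 alone, log2 fold changes turned for Acvr1b (-0.51), Acvr2a (-0.11), Bmp1 (-0.40), Bmp2k (-0.33), Bmpr1a (-0.0234), Bmpr2 (-0.17), Id1 (-0.26), Ltbp3 (-0.22), Ltbp4 (-0.67), Ski (-0.51), Smad2 (0.21), Smad3 (-0.18), Smad4 (-0.40), Smad5 (-0.0168), Smad6 (-0.0037), Smurf1 (-0.37), Tgfbr3 (-0.0343) and Tgif2 (-0.31). Leaving out each library, the range crossed 0 for Acvr1b (-0.14 to 0.49), Acvr2b (-0.69 to 0.21), Bmp1 (-0.026 to 0.91), Bmp2k (-0.14 to 0.30), Bmp6 (-0.21 to 0.36), Bmpr2 (-0.0154 to 0.46), Gdf11 (-0.43 to 0.0117), Id1 (-0.0107 to 0.41), Inhba (-0.18 to 0.0052), Ltbp4 (-0.19 to 0.75), Smad4 (-0.0537 to 0.82), Smurf1 (-0.14 to 0.32) and Smurf2 (-0.60 to 0.0547).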
